A study of Mus musculus with 35 samples.

Results

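Diabetic and control kidneys were compared at 8 months of age, the oldest of the 3 ages in the series, on 12 of its 35 arrays. These were the arrays titled as 8 month diabetic 1 to 6 and 8 month control 1 to 6, each of RNA from whole kidney, and the other 23 came from mice of 2 and 4 months. The diabetic group carried the OVE26 transgene, which drives calmodulin from an insulin promoter in pancreatic beta cells, so that the mice lack insulin from early life. The strain of both groups was FVB/NJ, and the control mice carry no further label of genotype or treatment. The labels give neither sex nor whether an array held RNA of 1 mouse, so the p-values below measure the spread between these 12 samples. The OVE26 model rests on loss of insulin and on 1 transgenic line, and it is known for heavy loss of albumin into the urine and for scarring of the kidney late in life.

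The kidney filters plasma through the podocytes of the glomerulus, and the tubule behind it takes back nearly all glucose, amino acids, phosphate and salt. The proximal tubule does most of this work, and the thick ascending limb, distal tubule and collecting duct adjust salt, magnesium, calcium, acid and water. Injured tubule cells are known to lower the genes of this transport work and to switch on genes such as Lcn2, Havcr1 and Cd44, while macrophages and lymphocytes enter the tissue and fibroblasts lay down collagen.

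The arrays carried 45101 probe sets, and each value is the log2 signal of a probe set as deposited, so that a difference of 1 is a doubling of signal. The brightest probe set stood for each of 18193 genes, and 13004 genes with a mean log2 signal above 5.27 over the 35 arrays were tested. Array means were 6.54 on each of the 12 arrays, and pairs of arrays correlated with r between 0.974 and 0.997 across probe sets. Genes of the kidney's own segments were bright: Umod, the thick ascending limb glycoprotein, was at 14.07 ± 0.01 (SD, n = 6) in the controls, and Slc34a1, the proximal phosphate transporter, at 13.53 ± 0.01. Xist, expressed from the inactive X, lay between 10.11 and 10.82 on all 12 arrays, and 3 genes of the Y chromosome lay between 3.63 and 4.92, below the limit for testing. By these genes the RNA on all 12 arrays came from females.

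One array and one measure of the RNA stood apart. Diabetic 3 lay at -39.0 along principal component 1 (48.4% of the variance), while the other diabetic arrays lay between -17.0 and -3.00 and the controls between 9.88 and 22.4. The log2 ratio of the 3' to the 5' probe set of beta-actin, a measure of RNA and labelling quality, was 0.780 to 0.946 in the diabetic arrays and 0.935 to 1.05 in the controls, so that the groups hardly overlapped. The same ratio for Gapdh ran from -0.0436 to 0.0797 and from -0.0501 to 0.104. Its part in the results was not tested beyond a fit with the ratio as a covariate, given beside the counts. The clock gene Arntl also varied within the groups, between 5.42 and 7.81 in the diabetic arrays and between 5.31 and 6.77 in the controls. The clock gene Dbp read 8.25, 8.14 and 7.32 in diabetic 1, 2 and 5, below every control (9.48 to 10.88). In diabetic 3, 4 and 6 it read 10.10, 10.51 and 10.64, within the control range. Clock phase (Arntl minus Dbp), used below as a covariate, was therefore not balanced between the groups.

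Diabetic and control arrays at 8 months differed in a large part of the genes tested. A gene was called where limma's moderated test, adjusted by Benjamini-Hochberg over the 13004 genes, gave a value under 0.05. By that rule 2370 genes were called (18.2%), 1304 of them higher in diabetes (10.0%) and 1066 lower (8.20%). The balance of directions depended on the scaling: quantile normalization gave 1243 higher and 1366 lower, and scaling to 1 median and interquartile range 873 and 1039. Of the called genes 161 differed at least 2-fold (1.24%), and 124 of these were higher (0.954%) and 37 lower (0.285%), so the large differences were mostly increases. The 6 diabetic and 6 control arrays did not overlap in 1261 genes (9.70%), and 1204 genes were both called and free of overlap (9.26%). The median difference over all genes was -0.00036. Without diabetic 3, 2138 genes were called and 1963 of them were among the 2370. With the beta-actin ratio as a covariate only 50 genes were called, 49 of them shared, while the Gapdh ratio left 1894. Clock phase as a covariate left 1519, 1459 of them shared. The beta-actin ratio and the group were so closely tied on these arrays that their parts cannot be told apart.

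**Figure D1:**
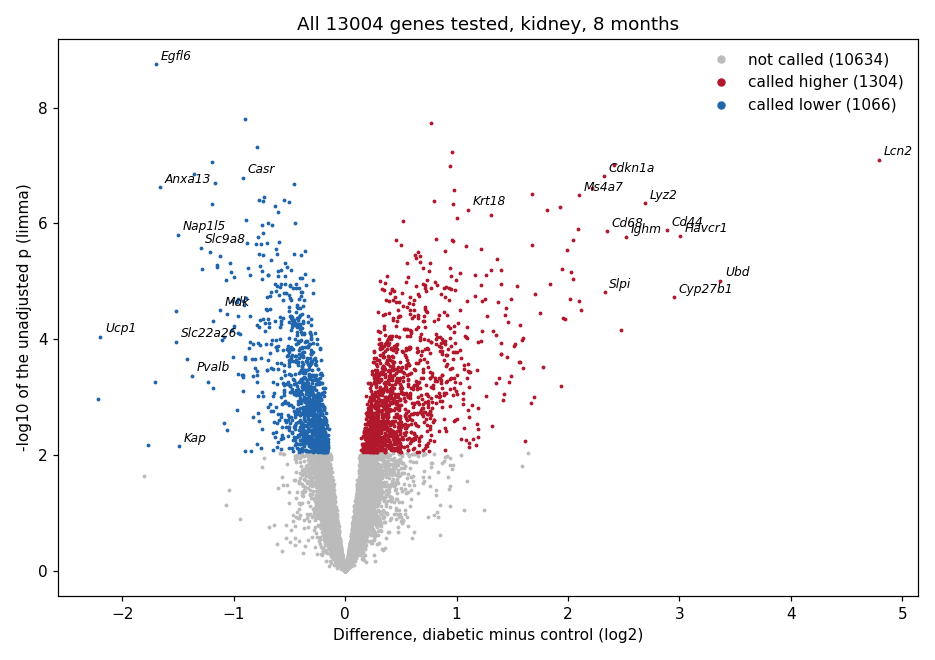
Each point is one of the 13004 genes tested at 8 months, with the log2 difference, diabetic minus control, on the horizontal axis and minus log10 of limma's unadjusted p on the vertical axis. The 1304 genes called higher reach 4.79 (Lcn2), while the lowest labelled gene, Ucp1, lies at -2.20.

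The diabetic kidneys also differed more among themselves than the controls did. The median SD of a gene was 0.156 in the diabetic arrays and 0.110 in the controls, and 74.4% of genes had the larger SD in diabetes. The ratio of the SDs had a median of 1.41 over all genes, 1.74 over genes called higher and 1.57 over genes called lower.

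Genes of tubular injury rose, and Lcn2 had the largest increase of all genes tested. Lcn2, which encodes the iron-siderophore carrier NGAL secreted by injured distal tubules, read 9.74, 10.84, 11.67, 8.07, 10.71 and 10.31 on diabetic arrays 1 to 6. The controls read 4.97, 5.08, 5.26, 5.32, 5.95 and 6.03. Every diabetic kidney was thus above every control, with diabetic 4 the lowest and diabetic 3 the highest. The difference was 4.79 ± 0.46 (SE), or 27.6-fold, with an adjusted p of 0.00015. Havcr1, the proximal tubule injury marker KIM-1, ran from 8.21 to 11.03 with a median of 9.72 in diabetes and from 6.50 to 7.28 with a median of 6.67 in controls. It rose by 3.01 ± 0.38, or 8.04-fold (adjusted p 0.000461), again with diabetic 4 lowest and diabetic 3 highest. Cd44, a hyaluronan receptor of activated epithelium and leukocytes, rose 7.42-fold, from 5.74 ± 0.25 to 8.63 ± 0.97 (SD, n = 6 each).

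Of the 44 genes of the tubular injury and dedifferentiation list, 36 were tested and 28 of these were called, all higher, against 10.0% of all genes. Their median difference was 0.83, against -0.00036 over all genes, and 19 showed no overlap of the groups, against 9.70% of all genes. Members included Vcam1, an adhesion molecule of injured proximal cells that fail to repair, which rose by 2.01 ± 0.32 to a diabetic mean of 9.93. Vcam1 is also on the list of cytokine and NF-kappaB genes, and the cells behind its rise were not tested. The keratin Krt18 of simple epithelia rose by 1.10 ± 0.13, and Krt19, named here after its values were seen, by 1.99 ± 0.26. Outside the list, Slpi, a secreted inhibitor of leukocyte proteases, rose 5.02-fold without overlap, and Sprr1a, a small proline-rich protein of stressed epithelium, by 1.67 ± 0.22. The mean of the injury list stood 0.50 above the control mean in diabetic 4, between 0.87 and 1.31 in diabetic 1, 2, 5 and 6, and at 1.85 in diabetic 3. Without diabetic 3 the list still had 27 members called higher, and with the beta-actin covariate Lcn2 alone of the list was called.

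Actin and adhesion genes rose with smaller steps. Of 29 tested, 19 were called, all higher, with a median of 0.30. Tmsb10, an actin monomer binder, rose by 1.17 ± 0.18, and the tropomyosins Tpm1 and Tpm4 rose by 0.71 ± 0.11 and 0.68 ± 0.12. Vcl, the vinculin of focal adhesions, rose by 0.63 ± 0.09 without overlap, from 9.83 to 10.02 in controls to 10.29 to 10.95 in diabetes. The count fell to 11 when every array was scaled to 1 median and interquartile range.

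**Figure D2:**
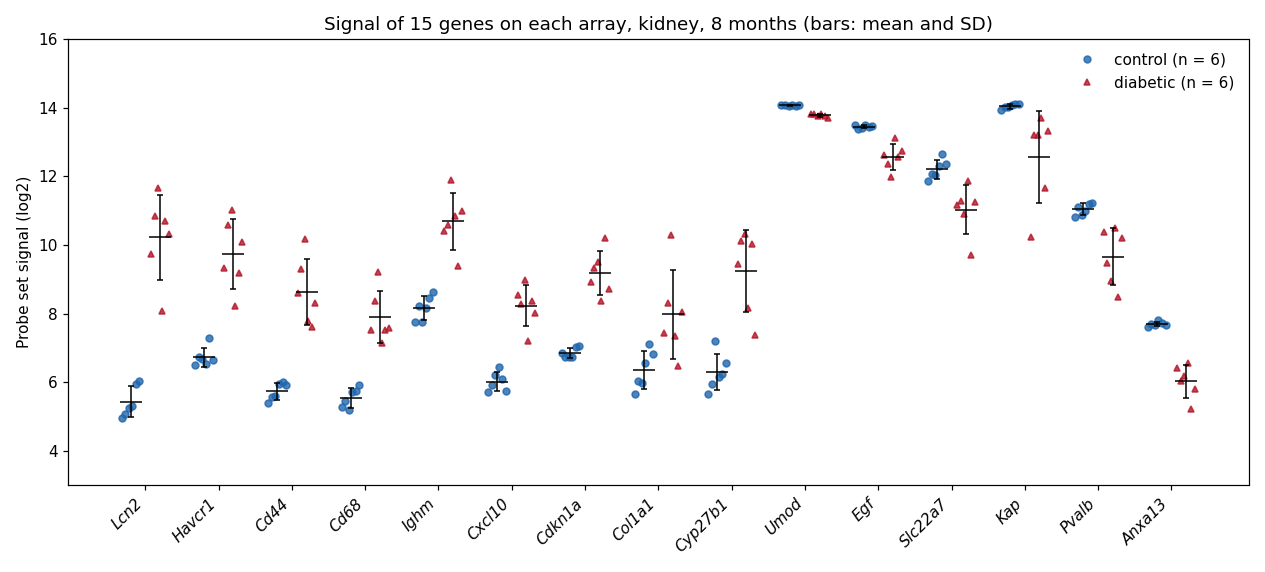
Log2 signal of 15 genes on each of the 12 arrays (circles, control; triangles, diabetic), with the mean and SD of the 6 arrays per group. Lcn2, Havcr1, Cd44, Cd68, Ighm, Cxcl10 and Cdkn1a separate the groups upwards; Umod, Egf and Anxa13 separate them downwards; Col1a1 overlaps.

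Macrophage and dendritic cell genes rose, with 30 of 34 tested members called, all higher, and a median difference of 0.98. In whole tissue, more cells of a type and more RNA per cell cannot be told apart, and this holds for every marker list here. Cd68, a lysosomal protein of macrophages, read 7.54, 8.36, 9.23, 7.15, 7.53 and 7.59 in diabetic 1 to 6 and 5.27, 5.46, 5.19, 5.71, 5.76 and 5.92 in control 1 to 6. It rose by 2.35 ± 0.29, or 5.09-fold (adjusted p 0.000408), and no diabetic kidney reached down to the controls. The lysozymes Lyz2 and Lyz1 rose 6.45-fold and 5.32-fold, though these near-identical genes may share signal on the array. Ms4a7, a membrane protein of tissue macrophages, rose by 2.10 ± 0.23, and Ctss, the protease that prepares MHC class II, by 1.56 ± 0.32. The list's mean was highest in diabetic 3, at 2.04 above the control mean, and ran from 0.61 to 1.34 in the other diabetic kidneys. Leaving out any 1 array kept 27 to 30 members called higher, but with the beta-actin covariate 3 were called higher.

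Complement genes rose in part, with 8 of 17 tested members called higher and 1 lower. The 1 lower was a share below the 8.20% over all genes. C1qa, C1qb and C1qc, whose products form the recognition molecule of the classical pathway and which macrophages make, rose by 1.40 ± 0.26, 1.59 ± 0.29 and 1.58 ± 0.29. Itgb2, the beta chain of the leukocyte integrins, rose by 1.22 ± 0.22. Of 18 neutrophil and mast cell genes measured, 8 were too dim to test, and of the other 10 the protease gene Mmp9 (up by 0.30 ± 0.07) was the 1 called higher, a share near the 10.0% over all genes. The 2 called lower were Kit, which intercalated cells also express, and the mast cell tryptase Tpsb2. Tpsb2 fell by 0.30 ± 0.09 and lost its call under 13 of 25 settings besides the beta-actin covariate, among them leaving out diabetic 1, 2, 3 or 5 or control 2, 3, 4 or 6 (adjusted p 0.0535 to 0.134 over the 13). Of the phagocyte oxidase, Ncf4, Rac2 and Ncf1 rose by 0.98 ± 0.19, 0.87 ± 0.21 and 0.71 ± 0.18, while Nox4, the oxidase of tubule cells, fell by 0.62 ± 0.11.

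Chemokines rose with 14 of 25 tested members called higher and 2 lower, and a median of 0.58. The 2 lower were near the 8.20% over all genes. Cxcl10, which draws T cells that carry CXCR3, read 8.54, 8.28, 8.98, 7.21, 8.37 and 8.01 in diabetic 1 to 6, against 5.71, 5.91, 6.21, 6.44, 6.08 and 5.76 in the controls. The lowest diabetic kidney, diabetic 4 at 7.21, was above the highest control at 6.44. The rise was 2.21 ± 0.23, or 4.63-fold (adjusted p 0.000197), and it kept its call with the beta-actin covariate. Cxcl11, which binds the same receptor, rose by 1.93 ± 0.22, while the third ligand Cxcl9, named after its values were seen, read 4.84 to 6.53 against 5.42 to 6.21 and was not called (0.29 ± 0.24). Ccl9 and Ccl2, which draw monocytes, rose by 2.02 ± 0.29 and 1.84 ± 0.27, and Ccl5 by 1.46 ± 0.29.

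Interferon-response genes varied widely between the diabetic kidneys. Of 36 tested, 13 were called, all higher, with a median of 0.63. The mean of the list was 1.25 above the controls in diabetic 1 and 1.27 in diabetic 3, but between 0.10 and 0.52 in the other 4. Ifit1, an antiviral protein that binds foreign RNA caps, ran from 6.89 to 9.30 in diabetes and from 6.19 to 6.85 in controls, and rose by 1.48 ± 0.32 (adjusted p 0.00769). Bst2 and Oas1a rose by 1.10 ± 0.23 and 0.84 ± 0.20, Oas1a with overlapping groups. Socs3, the feedback inhibitor of cytokine receptors, rose by 1.38 ± 0.30, with diabetic 3 at 8.95 and the others no higher than 7.36. The count of 13 depended on the fit: it was 10 without diabetic 3, 8 without control 2, 21 without diabetic 5, 7 with clock phase as a covariate, and 25 when all 35 arrays shared 1 estimate of spread. Of the MHC genes 8 of 14 were called, all higher, with a median of 0.57, and their mean was highest in diabetic 1 (1.53) and lowest in diabetic 5 (0.09). That count was 4 with the clock covariate, 5 without control 1 or without control 2, and 14 with all 35 arrays. H2-D1, a class I heavy chain, rose by 0.40 ± 0.10 and H2-DMa, which loads class II, by 1.10 ± 0.28.

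Cxcl10 and Ccl9 were the largest risers of the chemokine list, and Ifit1 and Socs3 of the interferon list, that had an entry in RefSeq's promoter table. The 250 bases before the start of each are printed 5' to 3' on the gene's strand (GRCm38.p6) so that 2 motifs of the factors these genes are known for can be seen. Capitals mark the interferon-stimulated response element (GAAA, any 2 bases, GAAA) and the kappaB letters (GGGA, any 4 bases, CC) on either strand. The windows are chr5:92348890-92349139 (minus strand) for Cxcl10, chr11:83578637-83578886 (minus) for Ccl9, chr19:34640639-34640888 (plus) for Ifit1 and chr11:117969367-117969616 (minus) for Socs3.
Cxcl10: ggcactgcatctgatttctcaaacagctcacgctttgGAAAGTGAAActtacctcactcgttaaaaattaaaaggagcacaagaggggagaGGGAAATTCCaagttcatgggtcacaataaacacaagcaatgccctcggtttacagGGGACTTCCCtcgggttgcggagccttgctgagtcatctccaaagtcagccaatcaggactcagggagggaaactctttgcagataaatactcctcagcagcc
Ccl9: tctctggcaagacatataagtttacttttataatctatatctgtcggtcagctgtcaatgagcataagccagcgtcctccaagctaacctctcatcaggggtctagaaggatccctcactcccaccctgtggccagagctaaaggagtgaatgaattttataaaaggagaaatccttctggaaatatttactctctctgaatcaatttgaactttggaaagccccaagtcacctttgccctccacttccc
Ifit1: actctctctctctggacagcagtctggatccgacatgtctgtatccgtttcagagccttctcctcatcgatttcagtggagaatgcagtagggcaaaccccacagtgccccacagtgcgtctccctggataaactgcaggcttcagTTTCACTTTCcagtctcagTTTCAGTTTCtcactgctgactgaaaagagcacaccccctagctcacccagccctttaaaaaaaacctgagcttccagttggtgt
Socs3: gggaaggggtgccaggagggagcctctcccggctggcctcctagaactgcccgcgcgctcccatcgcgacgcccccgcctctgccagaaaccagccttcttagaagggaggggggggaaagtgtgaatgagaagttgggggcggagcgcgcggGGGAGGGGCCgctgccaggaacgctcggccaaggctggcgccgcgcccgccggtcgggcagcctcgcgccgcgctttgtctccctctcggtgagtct
Cxcl10 held the first motif with its first base at -213 from the start and the second at -159 and -103, Ifit1 held the first at -104 and -85 on the other strand, Socs3 held the second at -97, and the Ccl9 window held neither. Of all 27025 promoters in that RefSeq list, 3.04% held the first motif, and 2.52% of those of tested genes. It stood in 10 of the 28 tested interferon genes with an entry (35.7%), and in 2.79% of promoters of genes called higher and 2.60% of those called lower. The kappaB letters, a looser pattern, stood in 17.3% of all promoters, 22.6% of those of tested genes, 26.5% of those called higher and 22.9% of those called lower. These matches describe letters only.

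Cytokine and NF-kappaB genes gave 16 of 30 called higher and 1 lower, the 1 a share below the 8.20% over all genes. Ubd, a ubiquitin-like protein induced by TNF and interferon-gamma, rose by 3.37 ± 0.49, or 10.3-fold. That was the largest difference after Lcn2 among called genes without overlap, unnamed transcripts aside. It ran from 6.91 to 10.29 in diabetes with diabetic 1 highest and diabetic 4 lowest, and from 4.70 to 5.35 in controls. Icam1, an adhesion molecule for leukocytes, rose by 1.09 ± 0.17, and Tnfaip3, which restrains NF-kappaB, by 0.93 ± 0.14.

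B and plasma cell genes were called in 8 of 13 tested members, all higher, with a median of 0.56. Ighm, the heavy chain of IgM, read 10.42, 10.57, 11.89, 10.84, 9.39 and 10.99 in diabetic 1 to 6 and 7.77, 8.21, 7.75, 8.16, 8.46 and 8.64 in the controls. The rise was 2.52 ± 0.32, or 5.72-fold, without overlap, although immunoglobulin probe sets can share sequence. Mzb1, a chaperone of antibody secretion, rose by 1.27 ± 0.21, and Sdc1, which both plasma cells and epithelium express, by 0.94 ± 0.20. T cell and natural killer cell genes gave 4 of 14 called, all higher. These were Coro1a (1.35 ± 0.25), Ccl5, Ptprc (1.06 ± 0.22) and Cd52 (1.04 ± 0.31), of which Ptprc and Coro1a are found in leukocytes of all kinds. Of the 28 T and natural killer genes measured, 14 were too dim to be tested. The count of 4 was 7 without diabetic 5. Cd52 lost its call under 10 of 26 settings besides the beta-actin covariate, among them leaving out diabetic 1, 2, 3 or 6 or control 1, 2 or 3 (adjusted p 0.0512 to 0.0770 over the 10).

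**Figure D3:**
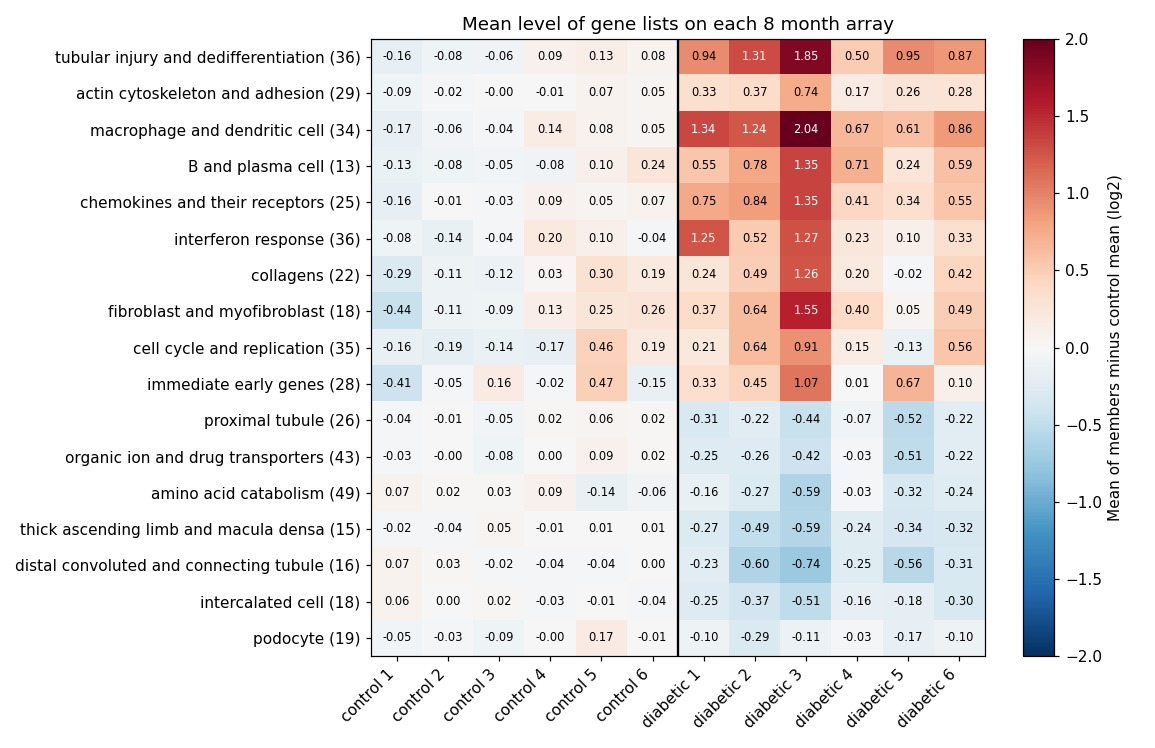
Mean log2 level of 17 gene lists on each 8 month array, minus the control mean (number of members tested in brackets). Diabetic 3 has the highest injury (1.85) and macrophage (2.04) means, while diabetic 4 has the mildest injury mean (0.50).

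Matrix genes had large differences and a wide spread between the diabetic kidneys. Of 22 collagens tested, 6 were called higher and 2 lower, and the median was 0.41. The shares over all genes were 10.0% higher and 8.20% lower, and the 2 were near the latter. Col1a1, the main fibrillar collagen chain, read 7.44, 8.30, 10.28, 7.34, 6.48 and 8.04 in diabetic 1 to 6 and 5.66, 6.04, 5.99, 6.56, 7.12 and 6.83 in the controls. Diabetic 5 lay within the control range and diabetic 3 far above the others, so that the rise of 1.61 ± 0.49 passed with an adjusted p of 0.0378. That call was lost under 10 of 26 settings besides the beta-actin covariate, among them the clock covariate (adjusted p 0.0520) and leaving out diabetic 2 or 6 or control 1, 2, 3 or 4. A second Col1a1 probe set differed by 1.15 without overlap. Col3a1 differed by 1.64 ± 0.54 and was not called (adjusted p 0.0507), with 8.09 to 12.41 in diabetes and 7.75 to 9.12 in controls. Fn1 (0.52 ± 0.33) and the TGF-beta target Ccn2 (0.53 ± 0.22) were not called either.

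Single matrix genes moved both ways. Col4a3 and Col4a4, chains of the mature glomerular basement membrane made by podocytes, fell by 0.53 ± 0.08 and 0.60 ± 0.07 without overlap. Col4a3 lost its call in the fit of all 35 arrays (adjusted p 0.137). Col4a4 read 10.35 to 10.69 in diabetes and 11.06 to 11.24 in controls. Col4a2, of the general basement membrane network, rose by 0.77 ± 0.18 and Col12a1 by 0.60 ± 0.10, with diabetic 3 highest at 7.08 and the other diabetic kidneys at 6.38 to 6.56. Lox, which crosslinks collagen, rose by 1.43 ± 0.34, with diabetic 3 at 9.31 and the other diabetic kidneys at 6.72 to 7.44. Sparc, a collagen-binding matrix protein, rose by 0.97 ± 0.19 on the brightest probe set, again with diabetic 3 apart (12.56 against 11.30 to 11.74), although a dimmer one differed by -0.04.

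Of the other matrix genes 8 of 42 were called higher and 1 lower, and of proteases and inhibitors 6 of 24 higher and 2 lower. Over all genes 10.0% were called higher and 8.20% lower. The 2 lower proteases and inhibitors were near that share, and the 1 lower matrix gene was below it. Without control 1, control 2 or control 3, the 8 became 5 and the 6 became 3. The 1 lower matrix call was lost without diabetic 1, diabetic 5 or control 6, and the 2 lower protease calls became 1 without control 2 or control 6. Mep1b, a metalloprotease of the proximal brush border, fell by 0.97 ± 0.15, and Plaur, the urokinase receptor, rose by 0.86 ± 0.16. The fibroblast list had a median of 0.41 but 3 of 18 members called higher, against 10.0% of all genes (6 without diabetic 5 and 5 without control 5). The 3 were S100a4 (1.40 ± 0.21), Vim (0.89 ± 0.21) and Col1a1. S100a4 and Vim are also expressed by leukocytes, whose lists rose in the same kidneys, and their part was not tested. The fibroblast mean stood at 1.55 in diabetic 3 and at 0.05 to 0.64 in the others. With all 35 arrays in one fit, 9 fibroblast, 12 other matrix and 12 protease genes were called higher.

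Acta2 and Tagln, contractile proteins of smooth muscle and myofibroblasts, rose by 0.92 ± 0.18 and 1.06 ± 0.25. Kcnj8 and Abcc9, which form the potassium channel of pericytes, fell by 0.52 ± 0.10 and 0.70 ± 0.09, Abcc9 from 8.81 to 8.93 in controls to 7.88 to 8.55 in diabetes. The list of smooth muscle, pericyte, mesangial and renin cells had 5 of 18 called higher and 2 lower. Over all genes 10.0% were called higher and 8.20% lower, and the 2 were near that share. The higher count of this list was 2 without control 2 and 3 without diabetic 5 or control 1, 3 or 4.

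TGF-beta and BMP genes moved both ways, 11 of 40 higher and 7 lower, against 10.0% and 8.20% of all genes. The 11 were 7 without control 2 or control 3, and the 7 lower were 4 with the clock covariate and 4 in the fit of all 35 arrays. Tgfb1, the ligand itself, rose by 0.68 ± 0.16 (adjusted p 0.0118), and Fst, which binds activin, by 1.49 ± 0.23. Id1 and Id4, targets of BMP signalling, fell by 0.92 ± 0.15 and 0.61 ± 0.09, and the inhibitor Smad7 fell by 0.46 ± 0.08. Id1 overlapped between the groups, with 9.14 to 9.85 in diabetes and 9.84 to 10.80 in controls. Of 35 Wnt and Notch genes 5 were called, all lower, against 8.20% of all genes. The 5 were 3 with the clock covariate and 3 without diabetic 5 or control 1, 2, 5 or 6. They included the Wnt antagonist Sfrp1 (by 0.78 ± 0.15) and the epithelial ligand Wnt9b (by 0.37 ± 0.09).

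Genes of the p53 response rose in part, and fewer genes of replication were called. Cdkn1a, the p21 inhibitor of cyclin-dependent kinases and a target of p53, read 8.36 to 10.19 with a median of 9.14 in diabetes and 6.72 to 7.05 in controls. It rose by 2.32 ± 0.24, or 5.00-fold (adjusted p 0.000177), highest in diabetic 5 rather than in diabetic 3, and it kept its call with the beta-actin covariate. Of 27 tested genes of the p53, arrest and apoptosis list, 14 were called higher and 1 lower, including Phlda3 (0.89 ± 0.13) and Ccng1 (0.56 ± 0.08), both p53 targets. The 1 lower call, a share below the 8.20% over all genes, was lost without diabetic 3, 5 or 6 or control 1, 2 or 4. Cell cycle genes gave 9 of 35 called, all higher, with Cdk6 up by 0.59 ± 0.13 and Cdk4 by 0.29 ± 0.06. Mcm5 and Mcm6, parts of the replicative helicase, rose by 1.11 ± 0.35 and 1.15 ± 0.35 with overlapping groups. Each lost its call under 12 settings besides the beta-actin covariate, among them leaving out diabetic 2, 3 or 6 or control 1, 2, 3 or 4 (adjusted p 0.0558 to 0.0870 for Mcm5 and 0.0503 to 0.0829 for Mcm6 over the 12). The count of 9 was 5 without diabetic 2, 3 or 6 or control 4, and 4 without control 1, 2 or 3. It was also 4 with the clock covariate, with the Gapdh ratio and with the replicate block, where the share over all genes in the reported fit was 10.0%.

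Stress genes were raised in part. Of 40 genes of the unfolded protein response and chaperones, 13 were called, all higher. Asns, the asparagine synthetase induced by ATF4, rose by 0.94 ± 0.13, the small heat shock protein Hspb1 by 1.23 ± 0.19 and the ER protein Creld2 by 0.90 ± 0.17. Diabetic 5 had the highest mean of this list, at 0.54. Immediate early genes gave 10 of 28 called, all higher, with Atf3 up by 1.57 ± 0.32, Cebpb by 1.09 ± 0.20 and Myc by 1.00 ± 0.15. NRF2 and antioxidant genes gave 8 of 33 higher and 3 lower, the 3 near the 8.20% over all genes. Cbr3, a carbonyl reductase under NRF2, rose by 1.40 ± 0.20, and Hmox1, which breaks down haem, by 1.94 ± 0.44, from 6.71 to 7.95 in controls to 8.39 to 11.40 in diabetes. Lysosomal genes gave 11 of 45 called, all higher, but Cd68 and Ctss among them are on the macrophage list too. The count was 7 with 1 median and interquartile range. Hexa and Gla, hydrolases of every lysosome, rose by 0.48 ± 0.08 and 0.69 ± 0.13. Cytosolic ribosomal protein genes hardly took part, with 1 of 41 called, Rpsa by 0.21 ± 0.05. That count was 0 with 1 median and interquartile range and 2 without diabetic 4 or control 5. Of 16 circadian clock genes tested 2 were called, both lower, against 8.20% of all genes. Without diabetic 1 or 2 or control 1, 2, 3 or 4, the 2 became 0.

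Many genes that mark the nephron's segments fell. Distal convoluted and connecting tubule genes fell in 11 of 16 tested, thick ascending limb genes in 10 of 15 and intercalated cell genes in 9 of 18, with medians of -0.39, -0.35 and -0.37. Proximal tubule genes fell in 10 of 26, with a median of -0.19. Differences between these shares were not tested. The first 3 counts stayed between 8 and 12 when any 1 array was left out, while the proximal count was 6 without diabetic 3 or control 5 and 5 without any 1 of the other controls. With the beta-actin covariate the lower counts were 0, 1, 2 and 0, in the order given above.

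In the thick ascending limb, Umod read 13.70 to 13.82 in diabetes and 14.05 to 14.09 in controls, and fell by 0.29 ± 0.04, a small change but free of overlap (adjusted p 0.000987). Egf, made by the same segment and its neighbour, read 12.63, 12.36, 11.98, 13.11, 12.55 and 12.73 in diabetic 1 to 6, and 13.37 to 13.51 in the controls. It fell by 0.89 ± 0.14, least in diabetic 4 and most in diabetic 3, the reverse of their order in Lcn2. Casr, the calcium-sensing receptor, fell by 0.92 ± 0.09, and Tmem207 by 1.03 ± 0.14.

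In the distal convoluted tubule, Pvalb, a calcium-binding protein of its early part, read 10.36, 9.48, 8.94, 10.49, 8.49 and 10.20 in diabetes and 10.81 to 11.23 in controls. It fell by 1.38 ± 0.30, or 2.60-fold, and diabetic 2, 3 and 5 were the lowest. Slc12a3, the thiazide-sensitive salt transporter, fell by 0.77 ± 0.15 on its bright probe set (mean 12.21 in controls), while a probe set near the limit for testing showed no difference (0.00). The magnesium channel Trpm6 fell by 0.58 ± 0.10, the regulatory kinase Wnk4 by 0.54 ± 0.08 and the sodium-calcium exchanger Slc8a1 by 1.06 ± 0.18.

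Collecting duct genes moved both ways. Of the intercalated cell genes, Slc26a4, the chloride-bicarbonate exchanger pendrin, fell by 0.77 ± 0.08 from 10.17 to 10.49 in controls to 9.43 to 9.91 in diabetes. Hmx2, Aqp6 and Kit fell by 0.78 ± 0.10, 0.47 ± 0.08 and 0.44 ± 0.07. Of the principal cell genes 5 of 17 were called higher and 2 lower, against 10.0% and 8.20% of all genes. Aqp2, the vasopressin-regulated water channel, rose by 0.66 ± 0.12 without overlap, and the transcription factor Elf5 by 0.76 ± 0.11. Aqp4, the water channel of the opposite membrane, fell by 0.72 ± 0.13 and Nr3c2, the aldosterone receptor, by 0.38 ± 0.06. Thin limb genes had 4 of 7 called, all higher, Fst, counted above, among them.

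In the proximal tubule, Kap, an androgen-regulated kidney protein, read 10.24, 13.20, 13.21, 13.70, 11.65 and 13.31 in diabetic 1 to 6 and 13.92 to 14.11 in the controls. It fell by 1.49 ± 0.47, with diabetic 1 and 5 far the lowest, and it was called (adjusted p 0.0427) but lost under 10 of 26 settings besides the beta-actin covariate, among them the clock covariate (adjusted p 0.120) and leaving out diabetic 5 or any 1 control. Slc5a2, the glucose transporter SGLT2, fell by 0.46 ± 0.10, Lrp2 and Cubn, the receptors that take up filtered protein, by 0.50 ± 0.08 and 0.32 ± 0.07. Slc34a1 was lower in every diabetic kidney (12.84 to 13.48 against 13.52 to 13.54) but was not called at -0.27 ± 0.10 (adjusted p 0.0688). Among nephron transcription factors 12 of 37 fell and 2 rose, with Osr2 down by 0.69 ± 0.10, Sim2 by 0.47 ± 0.07 and Tfap2b by 0.49 ± 0.08. The 2 that rose, a share below the 10.0% over all genes, became 1 without diabetic 1 or 2 or control 1, 2, 3, 4 or 6.

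Podocyte genes gave 6 of 19 lower and 2 higher, and the 2 became 1 without any 1 array other than diabetic 2, 4 or 5. The 2 were near the 10.0% called higher over all genes. Nphs1, the nephrin of the slit diaphragm, fell by 0.61 ± 0.14 with overlapping groups (6.24 to 7.24 against 7.13 to 7.64), Ptpro, a phosphatase of podocyte foot processes, by 0.52 ± 0.10 and Vegfa, the growth factor podocytes supply to glomerular endothelium, by 0.38 ± 0.08. Dpp4 rose by 0.36 ± 0.06, but its other probe sets differed by -0.31 to 0.38. Endothelial genes were mostly not called, with 2 of 23 higher and 2 lower, near the 10.0% and 8.20% over all genes. The higher count was 0 without control 2 and with the Gapdh ratio, and 1 without diabetic 4 or 6 or control 1, 3 or 6. The lower count was 4 without control 1. Esm1, a secreted proteoglycan of endothelium under VEGF control, fell by 1.36 ± 0.14 from 8.86 to 9.31 in controls to 7.40 to 8.21 in diabetes, and it kept its call with the beta-actin covariate.

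**Figure D4:**
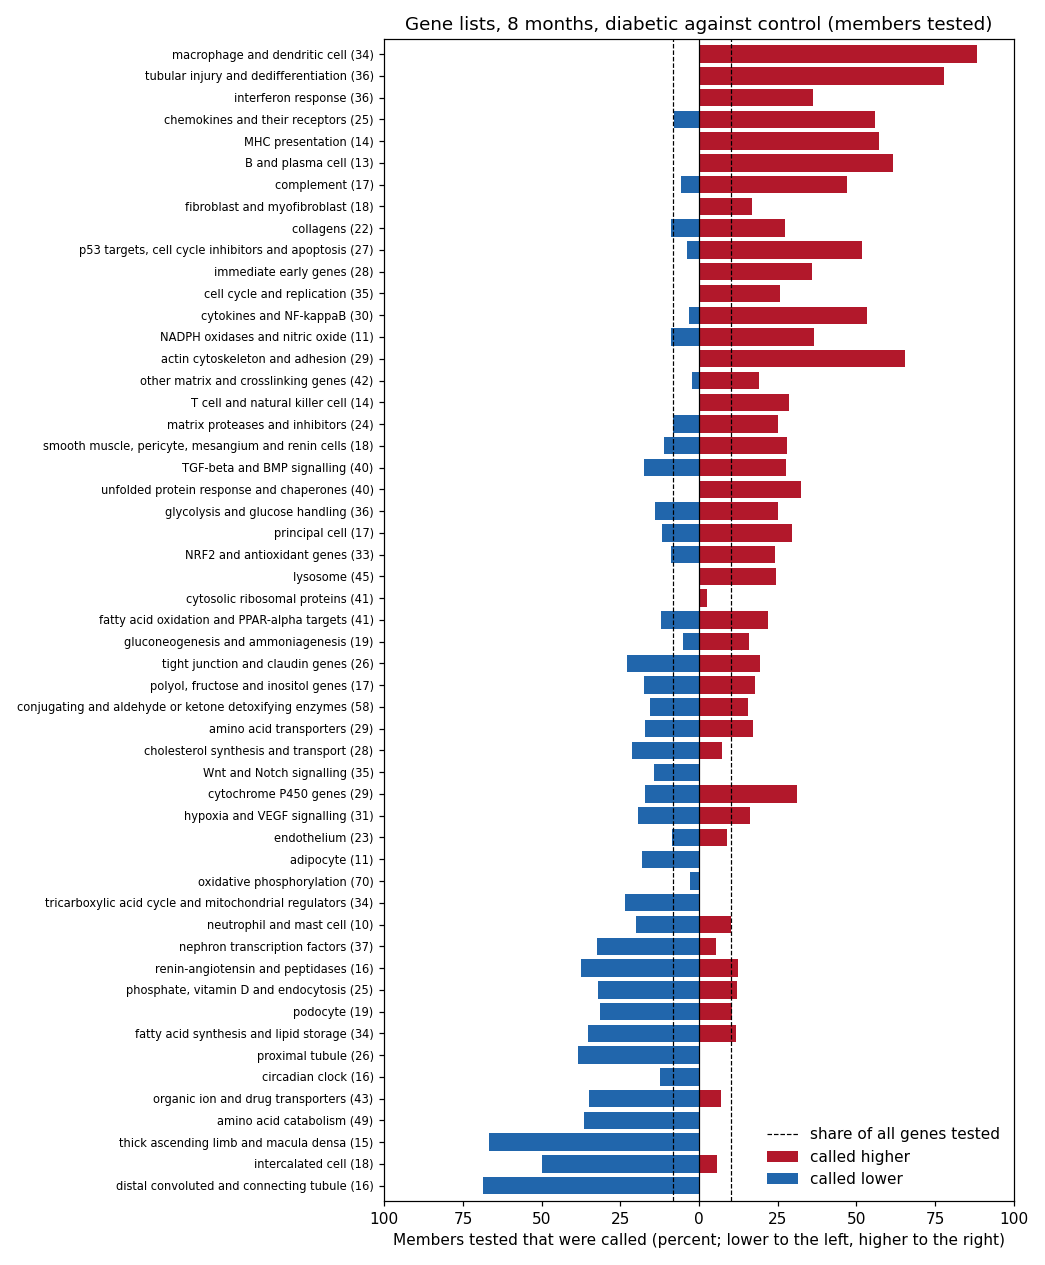
Percent of the tested members of each gene list called higher (right) or lower (left) in diabetes at 8 months, for lists with at least 10 members tested, ordered by their median difference. Dashed lines mark the shares over all genes, 10.0% higher and 8.20% lower.

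Among 43 organic ion and drug transporters, most of which serve the proximal tubule, 15 were called lower and 3 higher, with a median of -0.22. The 3 higher were a share below the 10.0% over all genes. Slc22a7, the organic anion transporter OAT2, ran from 9.71 to 11.85 in diabetes and from 11.87 to 12.64 in controls and fell by 1.18 ± 0.27, or 2.27-fold. Slc22a26, a related carrier, fell by 1.52 ± 0.28, and Slc22a8, the transporter OAT3 named after its values were seen, by 0.90 ± 0.29 (adjusted p 0.0476). Slc22a8 lost its call under 13 of 26 settings besides the beta-actin covariate, among them leaving out diabetic 1, 2 or 3 or any 1 control (adjusted p 0.0502 to 0.138 over the 13). Slco4c1 went the other way, up by 0.98 ± 0.10. The count of 15 was 8, 7 and 9 without control 2, 4 and 6 and 7 with the clock covariate. Of 29 amino acid transporters 5 were called higher and 5 lower, against 10.0% and 8.20% of all genes. The glutamine carrier Slc38a3 rose by 0.98 ± 0.18 and Slc7a12 fell by 0.67 ± 0.11. The 5 higher were 3 without diabetic 5 or control 1, 2, 4 or 6, and 3 with the clock covariate, the Gapdh ratio or 1 median and interquartile range. Slc15a2, the peptide transporter, fell by 0.74 ± 0.08.

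Genes that break down amino acids and ketones were among those that fell. Of 49 genes of amino acid catabolism, 18 were called, all lower, with a median of -0.22. Ivd, of leucine breakdown, fell by 0.74 ± 0.09, Kmo, of tryptophan breakdown, by 0.77 ± 0.13 and Aass, of lysine breakdown, by 0.47 ± 0.08. The ketone enzymes Bdh1, Acat1 and Oxct1 fell by 0.67 ± 0.09, 0.50 ± 0.07 and 0.39 ± 0.09. In fatty acid oxidation as a whole, 9 of 41 were higher and 5 lower, against 10.0% and 8.20% of all genes. The 9 were 3 with 1 median and interquartile range, and the 5 were 3 without diabetic 3 or control 1, 2, 3 or 4. Cyp4a12a, a fatty acid omega-hydroxylase, read 10.40, 9.47, 9.36, 9.45, 10.46 and 9.55 in diabetes and 7.60 to 8.26 in controls, a rise of 1.81 ± 0.21 that kept its call with the beta-actin covariate. Angptl4, the inhibitor of lipoprotein lipase that is induced by PPARs and by hypoxia, rose 4.14-fold.

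Fatty acid synthesis and lipid storage gave 12 of 34 lower and 4 higher, the 4 near the 10.0% called higher over all genes. The list's mean ran from -0.33 to -0.12 in diabetes and was -0.28 in control 1, the array with the low mean of fat cell markers (-1.33, against -0.06 to 0.66 in the other controls and -0.61 to -0.16 in diabetes). The fat cell gene Cidea (by 2.22 ± 0.54) fell the most in the list. The part of fat cells in the list was not tested, and without control 1 its lower count was again 12. Srebf1, its master regulator, fell by 0.86 ± 0.12, from 9.37 to 10.06 in controls to 8.70 to 9.07 in diabetes, the desaturase Fads2 by 0.60 ± 0.09 and the elongase Elovl6 by 0.43 ± 0.07, although a dim Elovl6 probe set differed by 0.27. Plin2, the coat protein of lipid droplets, rose by 0.76 ± 0.10. Of 28 cholesterol genes 6 fell and 2 rose, with Srebf2 down by 0.36 ± 0.08 and Apoe, which macrophages also make, up by 0.87 ± 0.19. The 2 that rose were a share below the 10.0% called higher over all genes. The 6 were 2 without diabetic 2 or control 3, 3 without diabetic 3 or 5 or control 1 or 4, and 1 with the clock covariate. Of 70 oxidative phosphorylation genes 2, Sdha and Sdhb, were called, both lower, and the median was -0.07. That was a share below the 8.20% called lower over all genes. Sdhb lost its call under 18 of 26 settings besides the beta-actin covariate, 11 of them leaving out any 1 array other than diabetic 4 (adjusted p 0.0524 to 0.142 over the 18). The count was 0 with the clock covariate, 5 without diabetic 4, and 1 without any 1 array other than diabetic 4 or 6. The tricarboxylic acid and mitochondrial regulator list gave 8 of 34 called, all lower, one of them the brown fat gene Ucp1, with the nuclear receptors Esrrg and Esrrb down by 0.38 ± 0.07 and 0.45 ± 0.09. The 8 were 4 with the clock covariate and 5 with 1 median and interquartile range.

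Glucose genes gave 9 of 36 higher and 5 lower, against 10.0% and 8.20% of all genes. Slc5a10, the mannose and fructose carrier SGLT5, read 12.02 to 12.43 in diabetes and 11.35 to 11.47 in controls. Its rise of 0.77 ± 0.07 was modest in size but had an adjusted p of 8.01e-05, and it kept its call with the beta-actin covariate. Slc2a2, the basolateral transporter GLUT2, and Slc5a1, the transporter SGLT1, rose by 0.56 ± 0.12 and 0.38 ± 0.07, while SGLT2 fell as above and the insulin-responsive Slc2a4 fell by 0.52 ± 0.07. Pck1, the key gluconeogenic enzyme, lay at 13.10 ± 0.20 against 13.12 ± 0.12 and was not called. A further bright Pck1 probe set differed by 0.01, and a dimmer one by -1.11 without overlap (means 6.01 against 7.11). Txnip, a glucose-induced gene, was not called (0.36 ± 0.17).

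Detoxifying enzymes changed in both directions. Of 29 cytochromes P450, 9 were higher and 5 lower, and of 58 conjugating, aldehyde and ketone enzymes 9 were higher and 9 lower. The shares over all genes were 10.0% higher and 8.20% lower. Aldh1a7 and Aldh1a1, close relatives that may share signal, rose by 1.95 ± 0.27 and 1.67 ± 0.18, and Cyp1b1 by 0.85 ± 0.17. Cyp2d12 fell by 1.71 ± 0.38 with overlapping groups, diabetic 3 being lowest at 6.32. The 9 conjugating enzymes called lower were 3 without control 1 or control 2, 5 and 4 without control 3 and control 4, and 3 with the clock covariate. The P450 genes called higher were 5 with the clock covariate and 5 with 1 median and interquartile range, and those called lower were 3 without control 4 and 3 with the clock covariate.

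Hormone systems of the kidney shifted at single steps. Cyp27b1, which catalyses the last step to active vitamin D, read 9.45, 10.10, 10.31, 8.17, 10.04 and 7.39 in diabetic 1 to 6 and 5.68 to 7.19 in controls. It rose by 2.95 ± 0.46, or 7.72-fold (adjusted p 0.00133), and the lowest diabetic kidney, diabetic 6, was still above the highest control. Cyp24a1, which degrades vitamin D, spread from 7.05 to 10.88 in diabetes and was not called (-0.38 ± 0.54). Kl, the co-receptor of FGF23, fell by 0.46 ± 0.11 on its brightest probe set, while a dimmer one hardly differed (means 6.21 against 6.22). In the renin-angiotensin list 6 of 16 were lower and 2 higher (4 without diabetic 5), against 8.20% and 10.0% of all genes. Agt, the substrate of renin, rose by 0.88 ± 0.15 and Ace, the converting enzyme, fell by 0.54 ± 0.07.

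Among the genes with the largest falls were several that belong to none of these pathways. Egfl6, a matrix protein with EGF repeats, read 7.20 to 7.78 in diabetes and 8.76 to 9.44 in controls, with the smallest p of all genes (difference -1.69 ± 0.12, adjusted p 2.32e-05). Anxa13, an annexin of epithelial membranes, read 6.42, 6.04, 6.18, 6.55, 5.21 and 5.80 in diabetes and 7.61 to 7.80 in controls, and fell by 1.66 ± 0.18. Both kept their call with the beta-actin covariate. Nap1l5, Prkd1 and Dusp15 fell by 1.50 ± 0.19, 1.20 ± 0.12 and 1.17 ± 0.12, all without overlap, as did Slc9a8, a sodium-proton exchanger of internal membranes (by 1.30 ± 0.17), and Dio1, which activates thyroid hormone (by 1.18 ± 0.20). Mdk, the growth factor midkine, fell by 1.12 ± 0.18, from 9.07 to 9.74 in controls to 7.59 to 8.82 in diabetes. Among the rising genes outside the lists were Fgg, the fibrinogen gamma chain, up by 2.10 ± 0.33, and Serpina10 and Ankrd1, up by 2.12 ± 0.35 and 2.04 ± 0.30.

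Tissue beside the kidney was checked with marker lists. Ucp1, the uncoupling protein of brown fat, read 4.69 to 5.21 in diabetes and 5.22, 7.99, 6.33, 7.97, 7.65 and 7.54 in control 1 to 6. It fell by 2.20 ± 0.40, the most among genes without overlap, with control 1 almost level with the diabetic kidneys. Cidea, which brown fat also expresses, fell by 2.22 ± 0.54, again with control 1 low (4.72). Adipoq, the general fat cell hormone, lay at 8.17 to 9.47 in diabetes and 8.21 to 9.75 in controls 2 to 6 but at 4.27 in control 1, and was not called (0.85 ± 0.70). The adipocyte list as a whole had 2 of 11 members called, both lower, and its mean ran from -0.61 to -0.16 in diabetes and reached -1.33 in control 1. Urothelial genes gave 5 of 9 called, all higher, with means from 0.33 to 0.63 in diabetes and up to 0.20 in controls, and 3 were called with 1 median and interquartile range. The largest rise in that list, by 1.67, was that of Sprr1a, given above beside the injury genes. Adrenal and red cell lists had 0 of 5 and 0 of 3 members called by limma, and at an unadjusted p under 0.05 they had 0 and 1. Without control 5 there was 1 higher red cell gene, and without diabetic 6 there was 1 lower. The part of adhering fat or urothelium in the gene lists above was not tested.

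The effect at 8 months was set against that at the younger ages in 1 fit of all 35 arrays, with a test of each difference. It differed from the effect at 2 months in 506 genes (3.89%), in 392 of them toward higher at 8 months (3.01%) and in 114 toward lower (0.877%). It differed from the effect at 4 months in 114 genes (0.877%), 96 toward higher (0.738%) and 18 toward lower (0.138%). The effect at 4 months rests on 7 diabetic and 4 control arrays. These counts moved with single arrays: the first was 329 without diabetic 3 and 759 without diabetic 4, the second 76 without control 2, 172 without diabetic 5 and 260 without diabetic 4.

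Injury, macrophage and immunoglobulin genes of the panel had their largest effect at 8 months. Ighm differed by -0.09 ± 0.21 (SE) at 2 months, 0.01 ± 0.23 at 4 months and 2.52 ± 0.21 at 8 months in that fit. Havcr1 differed by -0.06 ± 0.28, 0.70 ± 0.30 and 3.01 ± 0.28, and Vcam1 by -0.11 ± 0.25, 0.02 ± 0.27 and 2.01 ± 0.25. For these 3 and for Lcn2, Cd44, Cd68 and Lyz2 both differences between ages were called. Cxcl10 was already 1.35 ± 0.21 at 4 months, and its step from 4 to 8 months (0.86) was not called (adjusted p 0.161).

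Other panel genes were already low at 2 months. Anxa13 differed by -1.31 ± 0.23, -1.56 ± 0.25 and -1.66 ± 0.23 at 2, 4 and 8 months, Slc9a8 by -1.10 ± 0.18, -1.06 ± 0.19 and -1.30 ± 0.18, and Mdk by -1.05 ± 0.15, -1.06 ± 0.17 and -1.12 ± 0.15. Their differences between ages were not called, the largest being -0.35 for Anxa13 between 8 and 2 months. Cyp27b1 differed by 1.60 ± 0.45, 1.43 ± 0.49 and 2.95 ± 0.45, was called at 2 and 8 months but not at 4, and had no called difference between ages. Ucp1 differed by -0.16 ± 0.46 at 2 months, -2.28 ± 0.50 at 4 and -2.20 ± 0.46 at 8. Egf, Slc5a2, Kl and Nphs1 were lower at 8 than at 2 months by the test of the difference, and the last 3 differed by 0.23 ± 0.09, 0.28 ± 0.15 and 0.21 ± 0.12 at 2 months, none of them called there (adjusted p 0.200, 0.376 and 0.435).

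**Figure D5:**
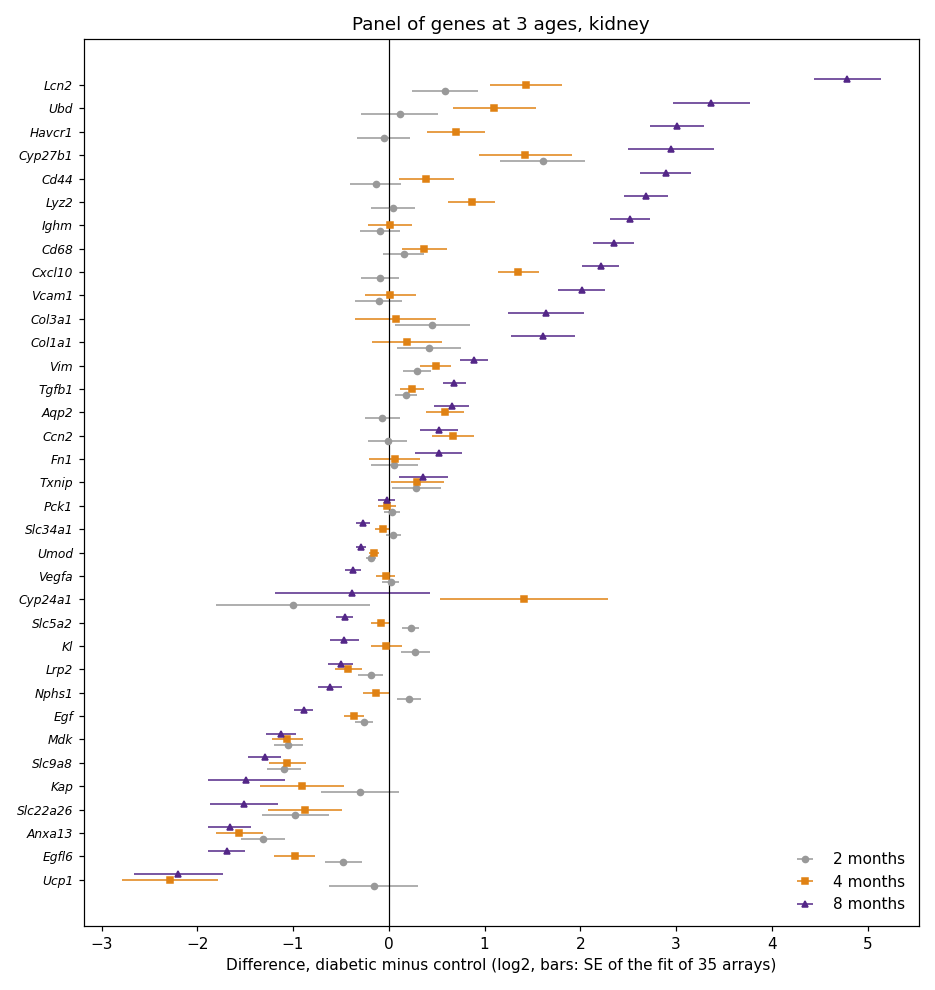
Log2 difference, diabetic minus control, of 35 panel genes at 2, 4 and 8 months, with the SE of the fit of 35 arrays. Lcn2, Havcr1, Cd44 and Ighm stand farthest right at 8 months, while Anxa13, Slc9a8 and Mdk lie near the same value at each age.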

How the data were processed

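Total RNA of whole kidney was extracted with TRIzol and labelled with biotin for Affymetrix arrays, per the labels' protocols. The authors deposited 1 log2 value per probe set and array; the sources used here do not give the normalization or background method, so log2 was read from the range of the values and from array means that hardly differ. Affymetrix arrays give no read depth, and their number limits the precision. Of 45101 probe sets, 34945 named 1 gene in GEO's annotation, 932 several and 9160 none, and the 64 control probe sets were not tested. The probe set brightest over the 35 arrays stood for a gene, and genes whose mean lay under percentile 40 of the probe sets were not tested.

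The 12 arrays of 8 months were fitted with limma 3.58.1 in R 4.3.3 (lmFit, eBayes; 13.5 degrees of freedom in all), diabetic minus control, and p-values were adjusted by Benjamini-Hochberg. Errors after ± are SE for a difference and SD (n = 6) for a mean, and folds are those of the log2 signal. Ages were compared by contrasts in one fit of 35 arrays. The fit was run on simulated data that gave both groups the control SD, so that run cannot cover the larger spread of the diabetic arrays. Same-numbered arrays of the 2 groups did not deviate together (r from -0.142 to 0.233), so numbers were not taken as pairs.

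The 58 gene lists (1394 of 1564 entries tested) and the panel of 40 genes (35 tested) were chosen with earlier results of these data known, and several lists share genes. Named genes were the 20 largest increases and decreases among called genes without overlap, up to 4 members per list with the smallest p, and the panel; unnamed transcripts were passed over, and 11 genes were chosen or given in more detail after their values were seen. Some entries of the lists are not analysed here. Of 206 further probe sets of called named genes 155 were bright enough, and 151 of these had the sign of the one used. Alternatives covered the probe set, the filter, scaling, variance model, covariates, replicate block and each array left out. The Gapdh covariate was chosen after seeing the data.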

Additional observations from a re-analysis of the deposited data

Results flagged for a closer look

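In 496 groups of 6 arrays (the diabetic and the control group of each named gene), 31 had 1 array that stood apart from the other 5 by Dixon's test. Chance gives such an array in about 1 in 20 groups. Diabetic 3 was the array apart in 11 of them. It was highest for Lox (9.31, the others 6.72 to 7.44), Sparc (12.56, 11.30 to 11.74), Col12a1 (7.08, 6.38 to 6.56), Socs3 (8.95), Plaur (8.72), Cdk6 (9.32), Tpm1 (10.21) and Kit (7.91). It was lowest for Casr (7.34), Dusp15 (5.26) and Elovl6 (9.99). Diabetic 5 was highest for Aldh1a7 (11.30, the others 9.21 to 9.86), Fbp2 (10.07) and Cidea (6.33) and lowest for Cxcl9 (4.84, the others 6.06 to 6.53). Diabetic 2 was lowest for Aqp4 (9.90) and highest for Cyp21a1 (5.66).

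Among the controls, control 1 was lowest for the fat cell genes Adipoq (4.27, the others 8.21 to 9.75) and Cidea (4.72, 7.21 to 8.57), and for Eng (9.27), and highest for Edn1 (6.90) and Ndufs1 (12.12). Control 5 was highest for Alas2 (9.55, the others 6.23 to 7.42), Havcr1 (7.28), Mep1b (11.26), Mcm3 (6.02), Slc7a12 (12.30) and Agt (9.25) and lowest for Agmat (7.62). Control 4 was lowest for Fads2 (9.87) and Bst1 (6.57).

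For 14 genes of the panel the diabetes effect at 8 months differed from that at a younger age by the test of the difference itself (log2 of 8 months minus the younger age, adjusted over all genes). Against 2 and 4 months the differences were 4.20 and 3.36 for Lcn2, 3.06 and 2.31 for Havcr1, 3.03 and 2.50 for Cd44, 2.12 and 2.00 for Vcam1. For leukocyte genes they were 2.19 and 1.98 for Cd68, 2.65 and 1.83 for Lyz2, and 2.61 and 2.50 for Ighm. Against 2 months alone they were 2.30 for Cxcl10 and 3.26 for Ubd, and in the other direction -1.22 for Egfl6, -0.82 for Nphs1, -0.74 for Kl, -0.69 for Slc5a2 and -0.63 for Egf. Each of these contrasts shares its 8 month arrays with the comparison above.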

How the results depend on the processing

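Of 220 named genes called at 8 months, 204 kept their call whichever 1 array was left out, and none reversed under any setting. Most named genes were picked for a large difference or a small p in these data, so this share does not stand for all called genes. Of all 2370 called genes, 1593 stayed called without control 2, 1631 without control 1 and 2180 without diabetic 4. With the 3'/5' beta-actin ratio, 50 genes were called, 21 higher and 29 lower, and 19 of them at least 2-fold. Of the 220 named genes 25 kept their call. The macrophage list then had 3 members called higher, the most of any list in 1 direction. The B and plasma cell, actin and adhesion, and amino acid catabolism lists then had 0 called. With clock phase (Arntl minus Dbp), 1519 were called, 845 higher and 674 lower. Of the 2370 genes 1459 kept their call, and 205 of the 220 named genes did. Leaving out 1 array gave 1606 (without control 2) to 2533 (without diabetic 4) called genes, 851 to 1351 higher, 750 to 1182 lower, and 116 to 210 at least 2-fold. Differences between ages ran from 329 (without diabetic 3) to 759 (without diabetic 4) genes for 8 against 2 months and from 76 (without control 2) to 260 (without diabetic 4) for 8 against 4 months, with 172 without diabetic 5. The replicate block, whose numbers do not pair these mice, left 2154 genes called at 8 months, 1941 of them shared, but 19 in place of 114 for 8 against 4 months; the cause was not tested. The other settings of probe set, filter, scaling, spread, all 35 arrays and Gapdh ratio called 1894 to 2609 genes, of which 45.7% to 58.7% were higher, and 113 to 188 at least 2-fold. Signal near background limits the lists of T cells and neutrophils, where 14 of 28 and 8 of 18 measured members were too dim to test.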
